A study of Homo sapiens with 26 samples.

Results

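The proteasome genes of LoVo cells, a human colorectal cancer line, were followed through 26 RNA sequencing libraries. Members were the genes whose symbol is PSM, then a letter from A to G, then only digits, with at least 1 FPKM (a read level that allows for the length of the transcript and the total of mapped fragments) in 2 or more libraries. Of 18165 genes listed in the first deposited table, 47 had such a symbol and 46 passed; PSMB11, a thymus-type subunit, stayed below 1 FPKM in all 18 libraries. Of 17734 genes in the second, 46 had such a symbol and all 46 passed. Of these, 5 genes were set apart as immunoproteasome (PSMB8, PSMB9, PSMB10, PSME1 and PSME2), and the other 41 are called standard members here. The first table holds 9 groups of 2 libraries: wild-type cells and lines carrying PIK3CA E545K or H1047R, each in DMSO, in 0.5 µM palbociclib for 72 hours, or in senescence-conditioned medium (S-CM), a medium collected from senescent cells. The second holds 4 groups of 2: E545K and H1047R cells given palbociclib at 0.5 µM, either by itself or for 48 hours together with erlotinib at 4 µM. The series asks how PIK3CA mutations alter the response to palbociclib, an inhibitor of CDK4 and CDK6, and what S-CM and erlotinib, an inhibitor of the EGF receptor, do to these cells. The mutant genes were added to wild-type LoVo by lentivirus and 1 line of each mutation was named for the palbociclib experiment, so mutation and line cannot be told apart. A time of 48 hours is also given for control cells in the labels' protocols, with no list of the libraries meant. The hours in S-CM and the cells it was taken from are not given in the sources used here.

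The proteasome degrades proteins tagged with ubiquitin. Its barrel-shaped core is built from rings of alpha subunits (PSMA genes) and beta subunits (PSMB genes), and PSMB5, PSMB6 and PSMB7 carry the cutting sites. A regulatory cap of ATPases (PSMC genes) and other subunits (PSMD genes) unfolds the substrate and feeds it into the core. Interferon-stimulated cells make the immunoproteasome, in which PSMB8, PSMB9 and PSMB10 take the places of PSMB5, PSMB6 and PSMB7, while PSME1 and PSME2 form an alternative cap. This form shapes the peptides that cells display on HLA class I molecules. In intestinal epithelium the standard form predominates unless the tissue is inflamed.

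The libraries bore the epithelial identity of the line: 10 of 10 epithelial markers reached 1 FPKM in the first table and 8 of 10 in the second, where KRT20 and CDX1 did not. Markers of immune, stromal and endothelial cells, which include carriers of the immunoproteasome, were counted in the same way. Of these 14, 4 reached 1 FPKM in the first table (PTPRC, CD68, COL1A1 and COL3A1) and 5 in the second (these and COL1A2). CD3E was at 0 or not listed in both. FPKM sums ran from 441643 to 524290, and the members held 0.605% to 0.901% of the sum in the first table and 0.662% to 0.776% in the second. In H1047R in palbociclib of the first table, 38 of 46 members were higher in replicate 2 than in replicate 1, by a median of 0.20 on the log2 scale, the widest such gap of the 13 groups. Most immunoproteasome results that use this library are also given without it. The labels do not say that replicates were separate cultures, so p-values measure only the spread between these samples, which may be technical.

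All 46 members were found in the RefSeq annotation of GRCh38.p14. PSMB8 (chromosome 6, 32840717 to 32844679, minus strand) and PSMB9 (chromosome 6, 32854192 to 32859851, plus strand) lie beside each other in the HLA class II region. PSMB10 lies on chromosome 16 (67934506 to 67936850, minus strand), and PSME1 (24136194 to 24138962, plus strand) and PSME2 (24143365 to 24146610, minus strand) are neighbours on chromosome 14. Of the members, 24 overlap a gene on the opposite strand, PSMB8 and PSMB9 among them, and 12 have pseudogenes named after them, 32 in all. Whether the counting used strand is not given in the sources used here, so reads of such pairs and copies may have been shared and these levels are uncertain to that extent.

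Promoter letters are shown for the 5 immunoproteasome genes because these genes rose together in several comparisons below. RefSeq promoter windows of 300 bases, from 250 before the start to 50 from it, were found for 40 of the 46 members. PSMA7, PSMB1, PSMB6, PSMB7, PSMD4 and PSMG3 had none. In these windows 3 motifs were searched on both strands: GAAANNGAA, the core bound by interferon regulatory factors; TTCNNNGAA, the gamma-activated site; and TGACNNNGC, the antioxidant response element bound by NRF-type factors. The lines below run 5′ to 3′ on the gene's strand from 150 bases before the start to 20 from it, with matches in capitals.
PSMB8 (chr6:32844028-32844197, minus strand): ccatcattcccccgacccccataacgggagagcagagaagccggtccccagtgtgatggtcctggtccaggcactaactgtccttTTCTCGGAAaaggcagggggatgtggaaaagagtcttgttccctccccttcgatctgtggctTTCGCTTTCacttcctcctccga
PSMB9 (chr6:32854042-32854211, plus strand): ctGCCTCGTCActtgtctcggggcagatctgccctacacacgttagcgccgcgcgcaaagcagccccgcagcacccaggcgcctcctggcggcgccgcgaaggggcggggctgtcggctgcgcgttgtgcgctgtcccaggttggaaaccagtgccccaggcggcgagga
PSMB10 (chr16:67936831-67937000, minus strand): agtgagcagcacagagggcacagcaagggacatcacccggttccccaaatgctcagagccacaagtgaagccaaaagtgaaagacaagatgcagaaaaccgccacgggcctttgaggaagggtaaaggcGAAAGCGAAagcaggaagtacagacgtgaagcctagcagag
PSME1 (chr14:24136044-24136213, plus strand): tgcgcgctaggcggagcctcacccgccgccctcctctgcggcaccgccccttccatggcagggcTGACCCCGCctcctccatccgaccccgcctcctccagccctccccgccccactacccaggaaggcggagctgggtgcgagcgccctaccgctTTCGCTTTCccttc
PSME2 (chr14:24146591-24146760, minus strand): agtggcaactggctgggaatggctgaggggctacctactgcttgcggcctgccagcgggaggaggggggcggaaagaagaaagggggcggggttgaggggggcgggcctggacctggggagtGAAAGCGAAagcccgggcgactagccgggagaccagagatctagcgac
The interferon regulatory factor core was found in PSMB8, PSMB10, PSME1 and PSME2 (positions -3 to 6, -21 to -13, 7 to 15 and -28 to -20 from the start) and not in the PSMB9 window. In PSMB8 and PSME1 it lies on the opposite strand. It was present in 8 members, PSMA4, PSMB4, PSMC2 and PSMG4 being the others, and in 8.11% of all 35116 windows. The gamma-activated site was in 7 members, of the immunoproteasome only in PSMB8 (-65 to -57), and in 7.66% of windows. The antioxidant response element was in 15 members, among them PSMB9 (-148 to -140), PSME1 (-86 to -78) and PSME2 (-175 to -167, outside the letters shown), and in 13.3% of windows. These motifs do not overlap each other in the printed stretches, and a match is a description of letters only. PSMB8 has another window, at a different start, that held none of them.

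FPKM is scaled to transcript length, so levels can be set side by side between genes. In untreated wild-type cells PSMB9 and PSMB10 were the lowest of the PSMB members. PSMB2, a standard subunit, went as low as 32.0 FPKM in the first table, near the PSMB8 level. PSMB10 stood at 6.11 and 4.92 FPKM in the 2 wild-type DMSO libraries, PSMB9 at 12.2 and 14.6, and PSMB8 at 29.8 and 33.5, while their standard counterparts PSMB7, PSMB6 and PSMB5 stood between 85.1 and 104. PSME1 and PSME2 were already abundant, at 172 and 168 and at 109 and 110 FPKM. Among standard members the alpha subunit PSMA6 was the most abundant, from 304 to 504 FPKM in the first table and from 200 to 385 in the second, but it has 4 named pseudogenes. PSMG4, an assembly chaperone of the core, was the lowest standard member in wild-type DMSO, at 3.83 and 5.59 FPKM.

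Palbociclib raised PSMB8, PSMB9, PSMB10 and PSME2 in all 3 genotypes and PSME1 in both mutant lines. PSMB9, which replaces PSMB6, stood at 27.5 and 31.5 FPKM in treated wild-type cells, 55.7 and 57.3 in E545K and 59.4 and 70.8 in H1047R, against 12.2 and 14.6, 22.9 and 27.2, and 26.1 and 22.0 in DMSO. In each genotype both treated libraries were above both DMSO libraries, and both mutant lines reached levels above treated wild type. The log2 change from 0 was 1.08 in wild type (SE 0.11, adjusted p 7.93e-06). The relative log2 change, that is the change minus the median of all genes, was 0.95 there, where that median was 0.14. E545K had a log2 change of 1.15 (SE 0.11, adjusted p 1.07e-06). H1047R had one of 1.397 (SE 0.11, adjusted p 3.75e-07). In both mutant lines the median of all genes lay within 0.1 of 0.

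PSMB8, which replaces PSMB5, stood at 43.7 and 47.1 FPKM in treated wild type, 70.6 and 71.7 in treated E545K and 67.3 and 93.6 in treated H1047R. In DMSO it stood at 29.8 and 33.5, 35.2 and 37.4, and 39.7 and 37.4, so treated and untreated libraries did not overlap in any genotype. From 0 it rose by 0.51 in wild type (a relative 0.37, adjusted p 0.00299), by 0.95 in E545K (adjusted p 6.6e-06) and by 1.02 in H1047R (adjusted p 9.01e-06). PSMB10, which replaces PSMB7, stood at 10.9 and 11.6 FPKM in treated wild type, 22.1 and 23.9 in treated E545K and 27.5 and 40.0 in treated H1047R. Its DMSO levels were 6.11 and 4.92, 10.6 and 11.1, and 15.3 and 15.2. Both treated mutant lines were above both treated wild-type libraries. The change from 0 was 0.92 in wild type (a relative 0.78, adjusted p 0.000189), 1.02 in E545K (adjusted p 2.4e-05) and 1.07 in H1047R (adjusted p 4.07e-05).

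The alternative cap moved with the catalytic subunits in the mutant lines. PSME2 stood at 138 and 146 FPKM in treated wild type, 209 and 215 in treated E545K and 247 and 283 in treated H1047R, against 109 and 110, 122 and 136, and 129 and 112 in DMSO. From 0 it rose by 0.37 in wild type (a relative 0.23, adjusted p 0.00381), by 0.71 in E545K (adjusted p 6.88e-06) and by 1.13 in H1047R (adjusted p 1.95e-07). PSME1 stood at 230 and 222 FPKM in treated E545K and 245 and 321 in treated H1047R, against 161 and 181 and 195 and 165 in DMSO. These were rises of 0.40 (adjusted p 0.00708) and 0.65 (adjusted p 0.000465). In wild type PSME1 stood at 197 and 206 against 172 and 168 FPKM, which did not pass, though it was called with quantile normalization (adjusted p 0.00725).

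**Figure D1:**
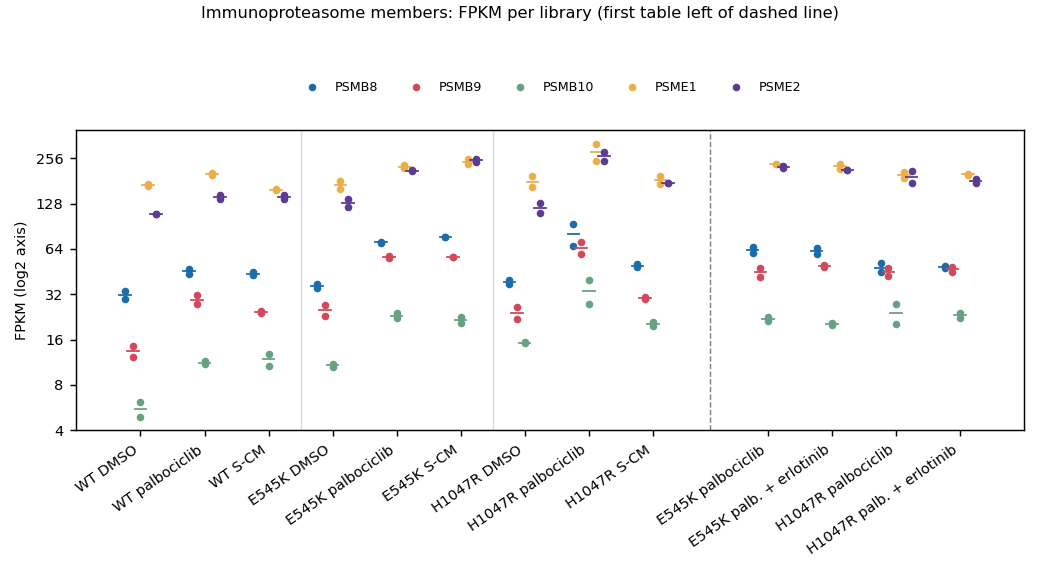
FPKM of PSMB8, PSMB9, PSMB10, PSME1 and PSME2 in each of the 26 libraries (points, 2 per group) with the group mean (bar), on a log2 axis, with the second table right of the dashed line. In the first table the treated mutant lines and E545K in S-CM hold the highest PSMB8 and PSMB9 levels, and wild-type DMSO the lowest PSMB8, PSMB9, PSMB10 and PSME2 levels.

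In counts, palbociclib raised 4 of 5 immunoproteasome and 5 of 41 standard members in wild type and lowered 1 standard member, where 27.2% of all genes tested were called higher and 6.77% lower. In E545K it raised 5 of 5 immunoproteasome and 17 of 41 standard members and lowered 3 standard members (all genes: 32.9% higher, 19.3% lower). In H1047R it raised 5 of 5 and 16 of 41 and lowered 1 (all genes: 19.5% higher, 19.8% lower). The median log2 change relative to all genes was 0.37, 0.87 and 1.10 for the immunoproteasome members in wild type, E545K and H1047R, against -0.10, 0.06 and 0.20 for the standard members. Without H1047R palbociclib replicate 2 the H1047R count fell from 21 to 12 members higher, and all 5 immunoproteasome members were still called. PSMB8 then rose by 0.79, PSMB9 by 1.27, PSMB10 by 0.81, PSME1 by 0.45 and PSME2 by 1.03 (adjusted p at most 0.0036). Without E545K DMSO replicate 1 or E545K palbociclib replicate 1 the E545K count was 14 in place of 22. PSME1 in E545K was not called without that DMSO replicate (adjusted p 0.0737). After centring every library on its median, PSME1 in E545K (adjusted p 0.117) and PSMB8 and PSME2 in wild type (0.0739 and 0.181) were not called. The summed FPKM of markers of other cells was 45.4 and 46.8 in wild-type DMSO and 54.9 and 55.1 in treated wild type. It was 54.9 and 54.8 against 44.5 and 45.9 in E545K, and 44.9 and 43.6 against 49.7 and 51.7 in H1047R. PTPRC reached at most 1.55 FPKM in any library, and CD68, at 24.1 to 68.9 FPKM, made up most of each sum. The part of such cells in these results was not tested. In bulk RNA, fewer cells of a type and less RNA per cell cannot be told apart.

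Standard members moved less, and a few had changes as large as those of the immunoproteasome in E545K. PSMG1, a chaperone that pairs alpha subunits during core assembly, stood at 50.1 and 46.3 FPKM in treated E545K against 24.6 and 22.0 in DMSO (log2 change 1.02, adjusted p 9.17e-07). PSME3, the nuclear activator that works without ATP, stood at 58.6 and 56.2 against 27.4 and 30.4 (0.97, adjusted p 2.41e-07). PSMG4, another core chaperone, stood at 13.3 and 14.9 against 6.66 and 7.75 (0.88, adjusted p 6.87e-05). All 3 were higher in both treated libraries than in either DMSO library. Of the ATPases, 5 of 6 rose in E545K, PSMC5 by 0.37 and PSMC3 by 0.36, and 4 of 6 rose in H1047R, PSMC4 by 0.53, PSMC3 by 0.41 and PSMC5 by 0.38. Of all genes, 32.9% were called higher in E545K and 19.5% in H1047R. In H1047R PSME3 (0.59), PSMG4 (0.55), PSMD2, a scaffold of the cap (0.43), and PSMA7 (0.36) also rose, the PSMA7 call being lost in 2 of the 4 fits without 1 library (adjusted p 0.152 and 0.262).

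In the standard beta ring 0 of 7 genes rose and 2 fell with palbociclib in E545K, where 32.9% of all genes were higher and 19.3% lower. PSMB6, the caspase-like site, stood at 79.4 and 80.0 FPKM in treated E545K against 112 and 119 in DMSO, with no overlap (log2 change -0.53, adjusted p 3.12e-05). In wild type it stood at 71.8 and 78.1 against 85.1 and 87.6 (relative log2 change -0.34, adjusted p 0.0425), a call lost without any 1 of the 4 libraries compared (adjusted p 0.0515 to 0.285). From 0 the wild-type change of PSMB6 was -0.20. In H1047R PSMB6 stood at 78.6 and 87.4 against 89.8 and 80.3 FPKM, which overlapped and did not pass. PSMB5 stood at 110 and 140 against 99.9 and 93.6 FPKM in H1047R and rose by 0.36 (adjusted p 0.00786), a call lost in 2 of the 4 fits without 1 library (adjusted p 0.0669 and 0.0931). PSMB7 was called in none of the palbociclib comparisons.

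Transcripts of each inducible catalytic subunit were set against those of its standard counterpart as a ratio of FPKM within each library, which does not depend on scaling between libraries. PSMB9 over PSMB6 was 0.155 ± 0.016 (mean ± SD, n = 2) in wild-type DMSO, 0.217 ± 0.017 in E545K and 0.283 ± 0.012 in H1047R. With palbociclib it was 0.393, 0.709 and 0.783 in the 3 genotypes, 2.54, 3.27 and 2.77 times the DMSO ratio. PSMB8 over PSMB5 went from 0.310, 0.358 and 0.398 in DMSO to 0.434, 0.650 and 0.639, and PSMB10 over PSMB7 from 0.0537, 0.0795 and 0.102 to 0.0930, 0.149 and 0.196. In H1047R with palbociclib replicate 1 alone the ratios were 0.756 for PSMB9 over PSMB6, 0.610 for PSMB8 over PSMB5 and 0.183 for PSMB10 over PSMB7. For each of the 3 ratios both treated libraries lay above both DMSO libraries in every genotype. An exact two-sided permutation test of 2 against 2 cannot go below 0.333, so the ratios carry no p-value. In every library the standard subunit had the higher FPKM, and the nearest approach was PSMB9 over PSMB6 in E545K with palbociclib and erlotinib, at 0.913 ± 0.017.

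**Figure D2:**
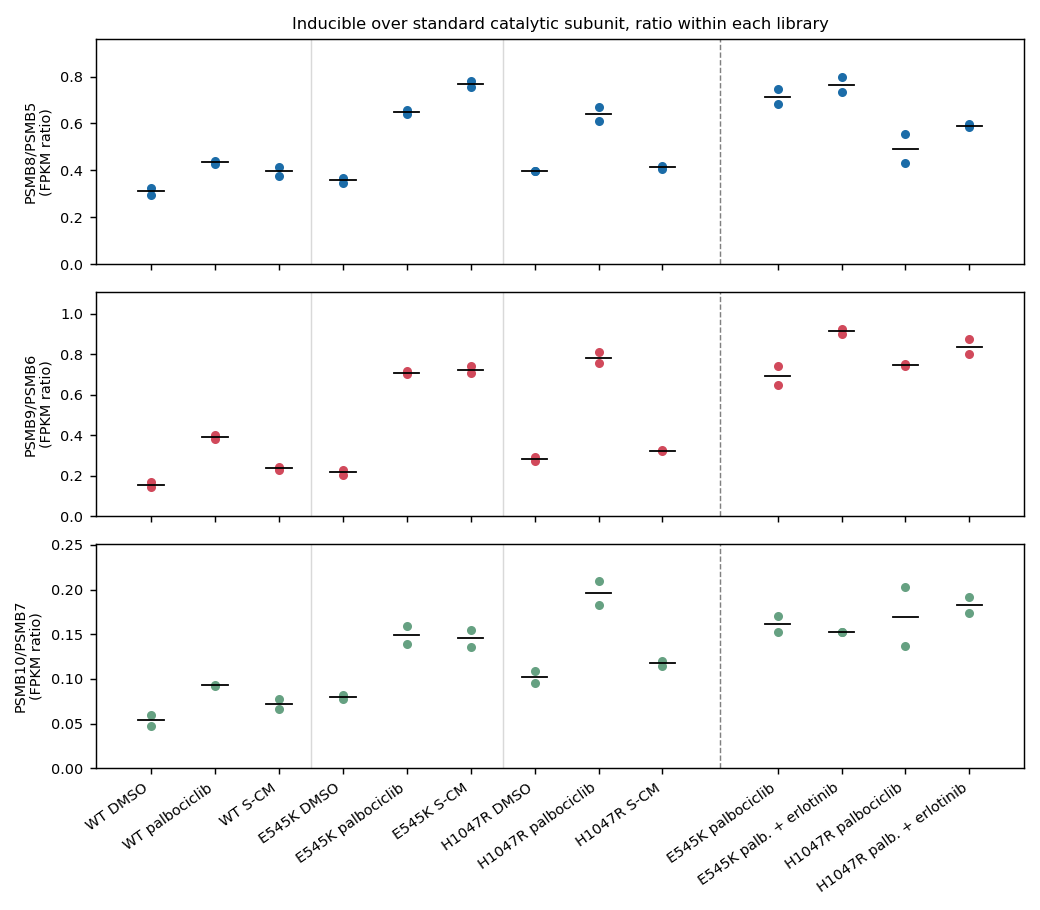
Ratio of each inducible catalytic subunit to the standard subunit it replaces, within each of the 26 libraries (points) with the group mean (bar), second table right of the dashed line, axes from 0. PSMB9/PSMB6 is near 0.155 in wild-type DMSO and between 0.694 and 0.783 in the palbociclib means of both mutant lines in both tables.

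Some genes known to drive the immunoproteasome were also higher under palbociclib. IRF1, a transcription factor of PSMB9 and TAP1, stood at 20.3 and 21.4 FPKM in treated wild type, 35.7 and 35.9 in treated E545K and 53.0 and 62.6 in treated H1047R, against 14.6 and 14.2, 18.9 and 19.8, and 21.7 and 22.1 in DMSO. Treated H1047R was highest in IRF1, and treated and untreated libraries did not overlap in any genotype. Of 13 inducers in the list, 9 were higher and 0 lower in wild type, 8 and 1 in E545K and 8 and 0 in H1047R, where 27.2%, 32.9% and 19.5% of all genes were higher, with NLRC5, the activator of HLA class I genes, called in each (relative 0.85, then 0.53 and 0.78). Of 15 peptide loading genes, 13, 14 and 13 rose and 0 fell in the same 3 comparisons. Among them TAP1, the peptide transporter, rose by a relative 0.49 in wild type, by 0.41 in E545K and by 1.05 in H1047R, and B2M, the light chain of HLA class I, by 0.48, 0.93 and 1.44. For NLRC5, TAP1 and B2M the wild-type values are relative and the mutant values are from 0, so they are on different scales.

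NFE2L1, the factor that restores proteasome genes when the proteasome is blocked, stood at 71.7 and 73.2 FPKM in treated wild type, 72.0 and 72.4 in treated E545K and 85.3 and 90.8 in treated H1047R. In DMSO it stood at 34.3 and 34.4, 40.4 and 41.4, and 47.6 and 42.8, so no treated library overlapped an untreated one. It rose by a relative 0.92 in wild type (adjusted p 6.14e-08), and, from 0, by 0.80 (adjusted p 1.27e-07) and 0.95 (adjusted p 5.88e-08) in the mutants. POMP, the chaperone that completes the core, was called in H1047R alone of the 3 (0.26, adjusted p 0.0262).

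**Figure D3:**
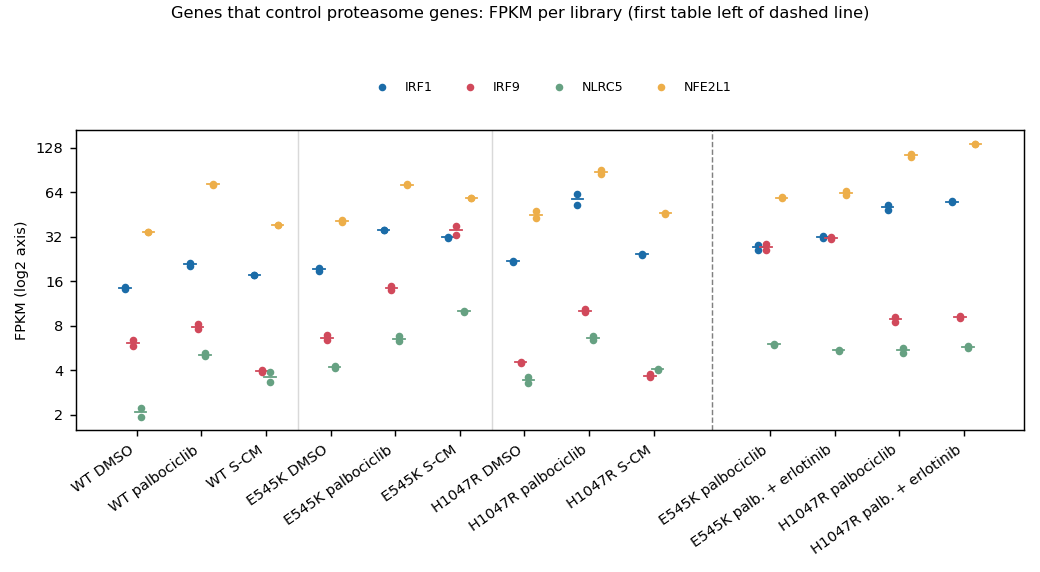
FPKM of IRF1, IRF9, NLRC5 and NFE2L1 in each library (points) with the group mean (bar), on a log2 axis, second table right of the dashed line. IRF9 is highest in E545K in S-CM, and NFE2L1 is higher in palbociclib than in DMSO in all 3 genotypes.

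Before any treatment, the question was which members the mutant lines held at other levels than wild type. In DMSO 30 of 46 members were higher in E545K and 0 lower, where 48.4% of all genes were higher and 10.4% lower. In H1047R 29 were higher and 1 lower, where 49.9% of all genes were higher and 17.5% lower. The 2 comparisons share the wild-type libraries. The median of all genes was itself shifted, by 0.25 and 0.26, and relative to it the members had medians of 0.06 and 0.07. After centring every library on its median 10 members were higher and 6 lower in E545K, and 10 and 11 in H1047R, so the surplus of higher members depends on the scaling.

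Some members stood well beyond that shift. PSME3 stood at 15.1 and 14.6 FPKM in wild type, 27.4 and 30.4 in E545K and 40.1 and 37.8 in H1047R (relative log2 changes 0.66 and 1.07, adjusted p 3.62e-07 and 3.62e-09). PSMG1 stood at 12.4 and 12.3, 24.6 and 22.0, and 38.8 and 40.8 (relative 0.61 and 1.35, adjusted p 3.73e-06 and 3.76e-09). For both genes the 3 genotypes did not overlap, with H1047R highest.

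PSMC3, an ATPase of the cap, stood at 37.4 and 38.9 in wild type, 63.8 and 68.6 in E545K and 72.2 and 65.6 in H1047R (relative 0.53 and 0.57). PSMB9 and PSMB10 were higher in both mutants, PSMB9 by a relative 0.60 and 0.54 and PSMB10 by 0.61 and 1.07 (adjusted p at most 8.96e-05). PSME2 in E545K and PSMB8 in H1047R were called higher, by 0.24 and 0.28 on the log2 scale, but lay at -0.01 and 0.02 relative to the median of all genes and turned negative after centring (-0.06 and -0.07). The PSME2 call was lost without wild-type DMSO replicate 1 or 2 or E545K DMSO replicate 2 (adjusted p 0.0798 to 0.203). The PSMB8 call was lost without wild-type DMSO replicate 1 or either H1047R DMSO replicate (0.0572 to 0.234). PSMB6 stood at 112 and 119 FPKM in E545K against 85.1 and 87.6 in wild type (relative 0.16, adjusted p 0.000222). PSMB7 was higher in both mutants, by a relative 0.15 and 0.28, and PSMB5 was called in neither.

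The S-CM groups differed from DMSO in different patterns in the 3 genotypes. The groups hold no control conditioned medium, and the hours in S-CM are not given. In all 3 genotypes S-CM therefore cannot be told apart from time or change of medium. In wild type, S-CM raised 31 of 41 standard members, lowered 1, and raised 4 of 5 immunoproteasome members. There 51.9% of all genes were higher and 18.6% lower, and the median of all genes was shifted by 0.29. Relative to that shift the standard members had a median of 0.15 and the immunoproteasome members 0.17. After centring, 20 members were higher and 5 lower. PSMG1 stood at 55.6 and 45.3 FPKM against 12.4 and 12.3 in DMSO (relative log2 change 1.65, SE 0.10, adjusted p 4.96e-10). PSME3 stood at 52.2 and 46.3 against 15.1 and 14.6 (relative 1.37, adjusted p 3.47e-10), and PSMC3 at 88.2 and 80.9 against 37.4 and 38.9 (relative 0.83, adjusted p 2.28e-08). For these 3 genes both S-CM libraries were above both DMSO libraries, and above those of the untreated mutant lines.

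Other standard members with large relative rises in wild-type S-CM were PSMG4 (0.83), the alpha subunits PSMA3 (0.62) and PSMA4 (0.55), and the cap subunits PSMD12 (0.56) and PSMD1 (0.53). All 6 ATPases were called higher, as were 9 of 11 non-ATPase subunits. Of all genes 51.9% were called higher and 18.6% lower, and their median was shifted by 0.29. The chaperone PSMD9, at 18.6 and 18.1 FPKM against 22.8 and 23.8, was the member called lower, and it was chosen for naming after its values were seen. PSMB9 stood at 24.0 and 24.8 FPKM and PSMB10 at 12.9 and 10.7 (relative 0.53 and 0.68, adjusted p 9.38e-06 and 1.6e-05). PSMB8 and PSME2 were called, by a relative 0.17 and 0.08, and lost the call after centring (adjusted p 0.445 and 0.81). PSME1, at 158 and 160 against 172 and 168 FPKM, did not pass, though after centring it was called lower (-0.44, adjusted p 0.0108). PSMB7 was higher by a relative 0.37, and PSMB6 was called by 0.26 on the log2 scale but lay at -0.03 relative to the median and at -0.08 after centring. Markers of other cells summed to 46.8 and 54.5 FPKM in wild-type S-CM against 45.4 and 46.8 in DMSO. Among them COL3A1, a collagen of stromal cells, stood at 19.6 and 17.3 against 3.36 and 3.57 FPKM, and CD68 at 24.1 and 34.2 against 39.2 and 40.8. Their part in the wild-type S-CM results was not tested. HLA-B, B2M and TAP1 fell here, by a relative -1.05, -0.76 and -0.56, and peptide loading genes were 7 higher and 8 lower of 15.

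In E545K S-CM raised 5 of 5 immunoproteasome and 16 of 41 standard members and lowered 6 standard members, where 32.4% of all genes were higher and 24.9% lower. PSMB8 stood at 77.3 and 77.1 FPKM against 35.2 and 37.4 (log2 change 1.07, adjusted p 1.5e-06), and PSMB9 at 56.2 and 56.1 against 22.9 and 27.2 (1.14, adjusted p 7.05e-07). PSME2 stood at 255 and 241 against 122 and 136 (0.94, adjusted p 3.31e-07). Both S-CM libraries lay above both DMSO libraries for each of these. PSMB10 rose by 0.94 and PSME1 by 0.50, and none of the 5 calls was lost under any alternative run. PSMB9 over PSMB6 was 0.723 ± 0.024 and PSMB8 over PSMB5 0.769 ± 0.019, 3.33 and 2.15 times the DMSO ratios.

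Of the standard beta ring 4 of 7 fell in E545K in S-CM, where 24.9% of all genes were lower. PSMB6 stood at 79.6 and 75.9 FPKM against 112 and 119 (-0.56, adjusted p 1.26e-05), and PSMB3 at 124 and 119 against 142 and 166 (-0.34, adjusted p 0.0398). The PSMB3 call was lost in 3 of the 4 fits without 1 library (adjusted p 0.092 to 0.268) and with no filter on low values (0.0759). The count of 6 lower members was 2 without E545K DMSO replicate 2 or E545K S-CM replicate 1, and 3 without E545K S-CM replicate 2. PSMG1 (1.12), PSME3 (0.99) and PSMG4 (0.47) rose. IRF9, a factor of type I interferon signalling, stood at 33.2 and 37.8 FPKM against 6.39 and 6.96 (2.25, adjusted p 8.3e-11). Peptide loading genes were 11 higher and 1 lower of 15, where 32.4% of all genes were higher and 24.9% lower. Markers of other cells summed to 40.8 and 39.2 FPKM in S-CM, against 54.9 and 54.8 in DMSO, and COL3A1 stood at 1.44 and 1.29 against 3.34 and 3.27.

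In H1047R S-CM raised 2 of 5 immunoproteasome and 16 of 41 standard members and lowered 1, where 8.65% of all genes were higher and 5.97% lower. PSME2 stood at 175 and 177 FPKM against 129 and 112 (0.55, adjusted p 0.000978). PSMB8 stood at 48.2 and 51.0 against 39.7 and 37.4 (0.36, adjusted p 0.045), a call lost without any 1 of the 4 libraries compared (adjusted p 0.0752 to 0.217). PSMB9, at 30.7 and 29.6 against 26.1 and 22.0, and PSMB10, at 19.7 and 20.8 against 15.3 and 15.2, did not pass. Markers of other cells summed to 47.6 and 52.4 FPKM against 44.9 and 43.6, with COL3A1 at 11.6 and 12.1 against 7.79 and 7.88, and their part was not tested. Of the ATPases 5 of 6 were higher, PSMC3 by 0.43 and PSMC4 and PSMC5 by 0.36. The PSMC4 call was lost in 3 of the 4 fits without 1 library (adjusted p 0.0629 to 0.118). PSMG1 (0.49), PSME3 (0.48) and PSMB5 (0.31, adjusted p 0.0381) rose too, the PSMB5 call being lost without any 1 of the 4 libraries (adjusted p 0.0593 to 0.178). The 18 higher members became 9 without H1047R DMSO replicate 1 or 2, 5 without S-CM replicate 1 and 6 without S-CM replicate 2. The palbociclib and S-CM comparisons of a genotype share its DMSO libraries.

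**Figure D4:**
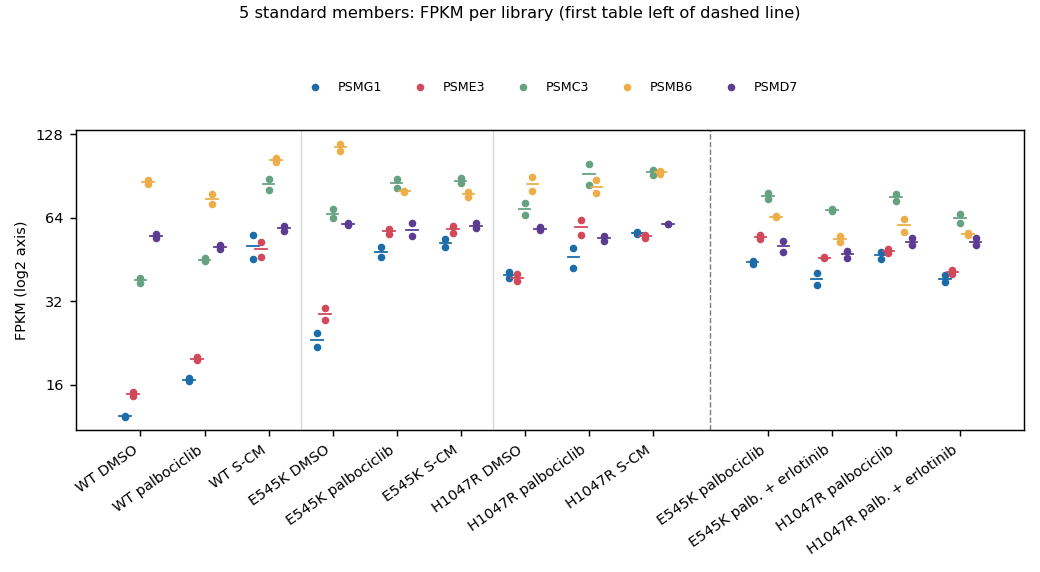
FPKM of PSMG1, PSME3, PSMC3, PSMB6 and PSMD7 in each library (points) with the group mean (bar), on a log2 axis, second table right of the dashed line. PSMG1, PSME3 and PSMC3 are low in wild-type DMSO and palbociclib and higher in wild-type S-CM and in all mutant groups, whereas PSMD7, called in none of the 10 comparisons of treatment or genotype drawn in the map of changes, stays between 45.8 and 61.2 FPKM.

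A split of this kind ran through many standard members. In 23 of 41 standard members all 4 wild-type libraries in DMSO or palbociclib lay below all 14 other libraries of the first table, which was true of 22.6% of all genes tested. This count was made after the levels were seen and carries no test. The 23 include the core subunits PSMA1, PSMA3, PSMA4, PSMA5, PSMB1 and PSMB7, the ATPases PSMC1, PSMC2, PSMC3 and PSMC5, and the chaperones PSMG1, PSMG3 and PSMG4. Of the 5 immunoproteasome members 0 showed it.

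Whether the responses differed between genotypes was tested directly. For palbociclib, E545K against wild type differed in 6 members upward and 3 downward, where 10.9% of all genes were higher and 14.7% lower. PSMG4 (0.63), PSMG1 (0.61) and PSME3 (0.57) responded more strongly in E545K (adjusted p 0.0232, 0.0047 and 0.0022). The PSMG4 call was lost in 4 of the 8 fits without 1 library (adjusted p 0.0847 to 0.119), and its value was 0.41 without wild-type DMSO replicate 2. Without 1 library the 6 and 3 members became 3 to 6 and 0 to 3. PSME2 of the immunoproteasome also responded more strongly in E545K (0.34, adjusted p 0.0453), a call lost without any 1 of 7 of the 8 libraries (adjusted p 0.0702 to 0.173) and with a replicate block (0.0517). For H1047R against wild type 6 members were higher and 2 lower, where 5.16% of all genes were higher and 17.4% lower and their median was -0.17. PSME2 (relative 0.93, adjusted p 0.00103), PSMC4 (0.75, adjusted p 0.00597) and PSMB8 (0.68, adjusted p 0.0317) responded more strongly in H1047R. From 0 the PSME2 difference was 0.765, and 0.667 without H1047R palbociclib replicate 2. The PSMB8 call was lost in 5 of the 8 fits without 1 library (adjusted p 0.0533 to 0.122). Without H1047R palbociclib replicate 2 the 6 became 3 and PSMB8 was not called (adjusted p 0.0797), and without replicate 1 they became 21. PSMB9 and PSMB10 were called in neither test of palbociclib responses. In H1047R their differences from 0 were 0.31 and 0.15. They were 0.44 and 0.42 without H1047R palbociclib replicate 1, and 0.19 and -0.11 without replicate 2. PSMB8 in E545K did not pass (0.44 from 0, adjusted p 0.0515), but was called with quantile normalization (0.00761) and with a replicate block (0.0331). PSME1 in H1047R did not pass (0.40 from 0, adjusted p 0.0755), but was called after centring (0.0468). It was 0.60 without replicate 1 and 0.21 without replicate 2 of H1047R palbociclib.

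The S-CM response differed from wild type in more members. The S-CM change in E545K was higher than in wild type in 3 members and lower in 30, where 10.0% of all genes were higher and 37.1% lower, with a median of all genes of -0.23. The 3 higher ones were PSMB8, PSME1 and PSME2 (relative 0.84, 0.83 and 0.79, adjusted p 0.00562, 0.00567 and 0.00134), and all 30 lower ones were standard members. PSMA3, PSMB6, PSMG1 and PSMD2 led these (relative -0.60, -0.59, -0.59 and -0.57). Of these PSMB6 fell with S-CM in E545K. After centring, 4 members were higher and 8 lower. The S-CM change in H1047R was higher than in wild type in 1 member and lower in 23, where 10.4% of all genes were higher and 40.5% lower, with a median of -0.27. PSMG1, PSME3 and PSMG4 led (relative -1.17, -0.91 and -0.69). PSMB9 and PSMB10 were among the lower ones (-0.23 and -0.32), and both calls were lost after centring (adjusted p 0.487 and 0.365) and with quantile normalization (0.14 and 0.328). The PSMB9 call was also lost without wild-type DMSO replicate 1 or H1047R DMSO replicate 1 (0.075 and 0.0613), and that of PSMB10 without wild-type DMSO replicate 2, wild-type S-CM replicate 1 or H1047R S-CM replicate 1 (0.0587 to 0.0936). After centring 6 members were higher and 5 lower. The wild-type libraries are shared by all 4 tests of response.

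The 2 mutant lines under palbociclib were measured in both tables. There 3 of 46 members were higher in H1047R than in E545K and 0 lower in the first table, where 4.75% of all genes were higher and 11.5% lower with a median of -0.10. They were PSMB10 (relative 0.61, adjusted p 0.0223), PSMA6 (0.47, adjusted p 0.00555) and PSME2 (0.42, adjusted p 0.0208). Without H1047R palbociclib replicate 2 the differences from 0 were 0.25 for PSMB10 and 0.22 for PSME2 (adjusted p 0.222 and 0.147), in place of 0.51 and 0.32. Each of these 2 calls was also lost without either E545K palbociclib replicate (adjusted p 0.0695 to 0.143). Only 1 member was called higher without H1047R palbociclib replicate 2 or E545K palbociclib replicate 1, 0 without E545K palbociclib replicate 2, and 21 without H1047R palbociclib replicate 1. In the second, 4 members were higher in H1047R and 12 lower, where 21.5% of all genes were higher and 30.1% lower. PSMB8 stood at 51.3 and 45.0 FPKM in H1047R against 66.2 and 60.4 in E545K (log2 change -0.39, adjusted p 0.00314), and PSME1 at 206 and 188 against 235 and 233 (-0.25, adjusted p 0.00705). PSME2 stood at 211 and 175 against 228 and 221 (-0.22, adjusted p 0.0465), a call lost in 3 of the 4 fits without 1 library (adjusted p 0.111 to 0.179).

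PSME1 and PSME2 stood in opposite order in the 2 tables, with both H1047R libraries above both E545K libraries in the first and below them in the second. The PSME1 difference of the first table did not pass (log2 difference 0.31, adjusted p 0.0676). It was 0.12 without H1047R palbociclib replicate 2 of that table and 0.51 without replicate 1. The PSME2 difference of the second table was -0.09 without its H1047R palbociclib replicate 2. Since each table had its own fit, the difference between them was not tested. Markers of other cells in the second table summed to 67.7 and 53.9 FPKM in H1047R and 39.3 and 46.3 in E545K, and their part in this order was not tested. PSMB9 stood at 47.9 and 42.2 FPKM in H1047R and 48.1 and 41.7 in E545K in the second table, which overlapped. IRF1 was higher in H1047R in both tables, at 53.0 and 62.6 against 35.7 and 35.9 FPKM and at 52.9 and 48.3 against 28.2 and 26.1. The higher member count became 9 without H1047R palbociclib replicate 1 of the second table, and the lower count 7 without E545K palbociclib replicate 2.

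Erlotinib added to palbociclib lowered some standard members, and 0 of 5 immunoproteasome members were called in either line. In E545K 0 of 46 members were higher and 14 lower, all standard, where 7.10% of all genes were higher and 9.11% lower. PSMA6 stood at 202 and 200 FPKM with erlotinib against 295 and 284 without (log2 change -0.52, SE 0.08, adjusted p 0.00362). PSMA3 stood at 76.0 and 71.7 against 89.5 and 97.7 (-0.34, adjusted p 0.00791), and PSMB2 at 26.28 and 25.99 against 32.6 and 33.7 (-0.33, adjusted p 0.00386). The libraries did not overlap for any of the 3. PSMA7 (-0.33), PSMB3 (-0.32), PSME4, an activator found in nuclei (-0.28), PSMC2 (-0.27), PSMB6 (-0.26) and PSMD1 (-0.24) fell too, as did POMP (-0.32, adjusted p 0.00524). The calls of PSMB6, PSMD1 and PSME4 were lost without any 1 of the 4 libraries compared (adjusted p 0.0798 to 0.173), those of PSMB3 and PSMC2 in 3 of these fits (0.0526 to 0.151) and those of PSMA3 and PSMA7 in 2 (0.0599 to 0.082). The 14 became 5, 3, 4 and 3 without palbociclib replicate 1 or 2 or combination replicate 1 or 2.

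In H1047R 0 members were higher and 7 lower, where 3.01% of all genes were higher and 6.35% lower. PSMC2 stood at 44.5 and 44.1 FPKM against 53.5 and 54.0 (-0.27, adjusted p 0.00884), and PSMG1 at 39.7 and 37.4 against 45.4 and 48.3 (-0.27, adjusted p 0.0322). PSMC3, PSMB5, PSME3, PSMG3 and PSMB2 fell by -0.25 to -0.20. The 7 became 19 without H1047R palbociclib replicate 1 and 0 without either combination replicate, and with a replicate block they became 2. The log2 differences of the immunoproteasome members ran from -0.10 to 0.13 in E545K and from -0.09 to 0.06 in H1047R, with adjusted p of at least 0.353. Without H1047R palbociclib replicate 2 of the second table PSME2 was called lower in H1047R (-0.23, adjusted p 0.0173). Their 95% intervals together ran from -0.37 to 0.32 in E545K and from -0.30 to 0.25 in H1047R. PSMB9 stood at 49.7 and 48.3 FPKM with erlotinib against 48.1 and 41.7 in E545K, and at 48.5 and 45.1 against 47.9 and 42.2 in H1047R. The mean ratio of PSMB9 over PSMB6 was 0.913 with erlotinib against 0.694 in E545K and 0.8375 against 0.747 in H1047R, without overlap. PSMB8 over PSMB5 was 0.591 against 0.493 in H1047R, also without overlap. PSMB8 over PSMB5 in E545K and PSMB10 over PSMB7 in both lines overlapped. These ratios were not tested. The test of the difference between the 2 erlotinib responses called 0 of 46 members in either direction, where 0.899% of all genes were higher and 1.27% lower. By the same limma fit 2 members had an unadjusted p under 0.05, and no other tool was run. Palbociclib with erlotinib was given for 48 hours, and the hours of palbociclib alone in this table are not given in the sources used here, so erlotinib and time cannot be told apart.

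**Figure D5:**
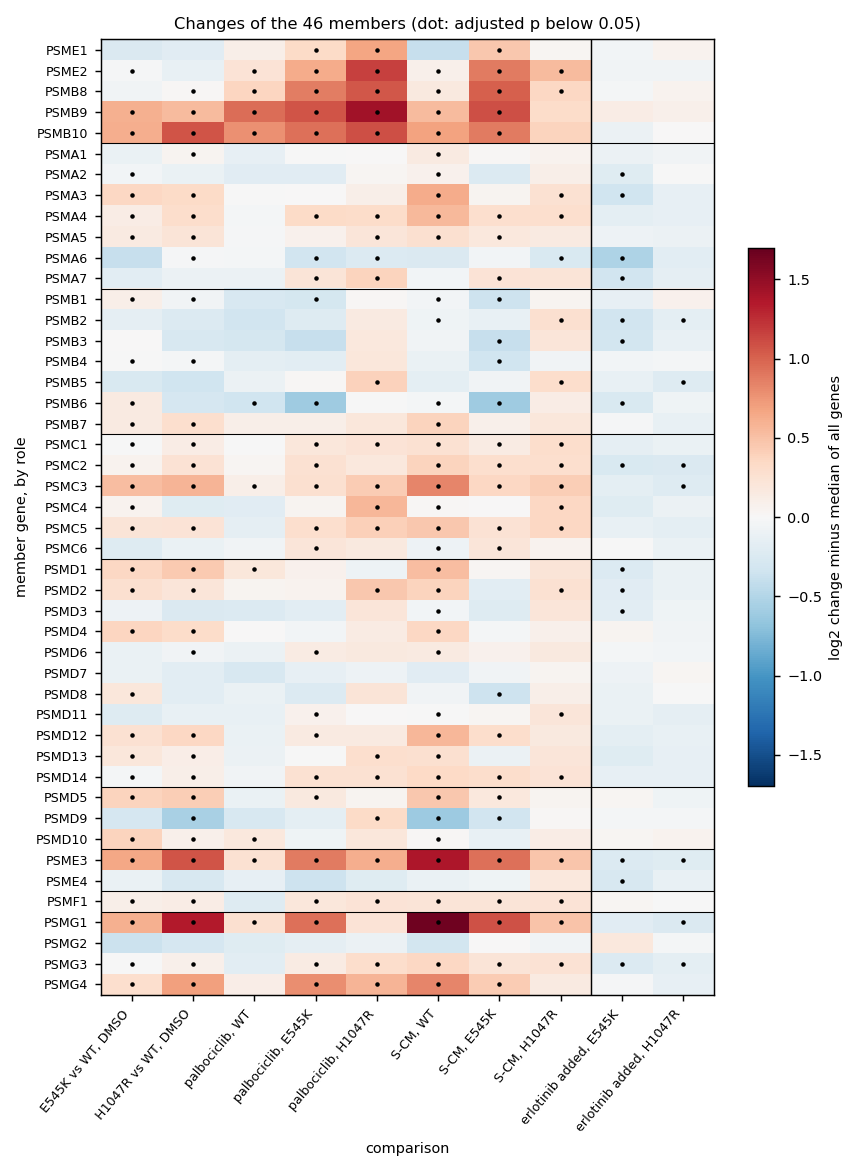
Log2 change of each of the 46 members (rows, grouped by role from immunoproteasome to core assembly chaperones) minus the median of all genes in 10 comparisons (columns), red for higher and blue for lower; a dot marks an adjusted p below 0.05 for the change from 0. The 5 immunoproteasome rows are red and called in palbociclib and S-CM of E545K and in palbociclib of H1047R, and no immunoproteasome row is called in the erlotinib columns.

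Proteins that assemble or work with the proteasome were followed as well. Of 14 partner genes, which include POMP and the deubiquitinating enzymes USP14 and UCHL5, 9 were higher and 2 lower in wild-type S-CM, where 51.9% of all genes were higher and 18.6% lower. Under palbociclib 1, 6 and 5 were higher and 3, 1 and 1 lower in wild type, E545K and H1047R. Of all genes 27.2%, 32.9% and 19.5% were higher and 6.77%, 19.3% and 19.8% lower. With erlotinib 5 were lower in E545K and 1 in H1047R, and 0 were higher, where 9.11% and 6.35% of all genes were lower. NFE2L3, a relative of NFE2L1, was higher in E545K and H1047R in DMSO and in wild-type S-CM, each against wild type in DMSO (relative 0.26, 0.96 and 0.82).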

How the data were processed

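The members and the gene lists were chosen with earlier results of these data known. RNA enriched with oligo(dT) was sequenced in 26 libraries, 2 per group, from cells grown with 10% serum. The authors deposited FPKM values, 1 column per library in 2 tables, per the file headers; 0 columns were left unused. Per the submitters' processing notes, which state no roles, the tools were DESeq2 1.4.5, RSEM 1.3.1, HISAT2 2.1.0 and Bowtie2 2.3.4.3, and the build was GRCh38 (hg38). Low values were within 0.15 of a whole read step in 52.4% and 52.2% of cases, so reads were not recovered, depth is unknown and no counting interval is given.

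FPKM was transformed to log2(FPKM + 1), a scale that understates the change of low genes. The test took genes that reached 1 FPKM in 2 or more libraries, 12607 and 12463 in the 2 tables. Each table was fitted apart with limma 3.58.1 in R 4.3.3, with 1 coefficient per group, empirical Bayes moderation and an intensity trend, so all groups share 1 estimate of the spread. Two-sided p-values were Benjamini-Hochberg adjusted over all genes tested and called below 0.05, in 17 comparisons. All adjusted p-values in the text are these. Where all genes had a median shift of over 0.1 (log2), changes are given relative to it, while the test is of the change from 0. On simulated data of 12607 genes for palbociclib against DMSO in wild type, 66 of 100 genes changed by 0.5 on the log2 scale and 95 of 100 changed by 1 were called, with 8 false calls. The simulation changed no other genes and held no shift of all genes. In the data 27.2% of genes were called higher and 6.77% lower in that comparison, so these rates do not carry over to it.

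The rule for named genes took PSMB5 to PSMB10, PSME1 and PSME2 in every comparison, up to 8 other called members by absolute log2 change, and up to 5 called genes from each list of partners, regulators, ubiquitin genes, inducers and peptide loading genes. Fewer are printed where values repeat. Alternatives were a pseudocount of 0.1, no filter on low values, quantile normalization, median-centring, a replicate block and leaving out each library. RefSeq tables of GRCh38.p14 gave positions and promoters, and GENCODE 29 the named pseudogenes. Some genes of these lists are not reported here by name.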

Additional observations from a re-analysis of the deposited data

Results flagged for a closer look

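Each value here is a difference between 2 log2 changes, from 0, and was picked out because a limma test found that the response of a mutant line and that of wild type differed (adjusted p below 0.05). For palbociclib in E545K minus wild type the differences were 0.344 for PSME2, -0.322 for PSMB6, 0.63 for PSMG4, 0.611 for PSMG1, 0.569 for PSME3, 0.387 for PSMC5, 0.355 for PSMF1, -0.352 for PSMA6 and -0.313 for PSMD10. For palbociclib in H1047R minus wild type they were 0.515 for PSMB8, 0.765 for PSME2, 0.584 for PSMC4, -0.444 for PSMD1, 0.433 for PSMD9, 0.391 for PSMC5, -0.361 for PSMA6 and 0.319 for PSMG3.

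For S-CM in E545K minus wild type the differences were 0.606 for PSMB8, 0.601 for PSME1, 0.563 for PSME2, -0.823 for PSMB6, -0.537 for PSMB7, -0.827 for PSMA3, -0.816 for PSMG1, -0.802 for PSMD2, -0.733 for PSMD1, -0.732 for PSMC3, -0.677 for PSME3, -0.648 for PSMG4 and -0.629 for PSMD4. For S-CM in H1047R minus wild type they were -0.506 for PSMB9, -0.594 for PSMB10, -0.469 for PSMB7, -1.45 for PSMG1, -1.18 for PSME3, -0.964 for PSMG4, -0.692 for PSMC3, -0.691 for PSMD5, -0.677 for PSMD12, -0.647 for PSMA3 and -0.59 for PSMD1.

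In 5 members H1047R and E545K under palbociclib stood in opposite order in the 2 tables, every library of one line being above the other in 1 table and below it in the other. The log2 difference in the first table minus that in the second was 0.353 for PSMB2, -0.399 for PSMD11, 0.558 for PSME1, 0.54 for PSME2 and 0.463 for PSMG3. These differences between tables were not tested. How many of all genes stood in opposite order was not counted, so the 5 cannot be set against a share of all genes.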

How the results depend on the processing

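Depth is unknown and each group holds 2 libraries. Of 173 calls of named members, 173 held with a pseudocount of 0.1, 162 with no filter on low values, 155 with quantile normalization, 166 with a replicate block and 132 with median-centring, which reversed 3: PSME2 in E545K against wild type (-0.056), PSMB8 in H1047R against wild type (-0.067) and PSMB6 in wild-type S-CM (-0.079). Leaving out 1 library ended the call in 166 of 856 such fits. Of 39 group ratios 7 moved by more than their SD when 1 was added to each FPKM. For counts that moved by over 1.5 times the cause was not tested.

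With median-centring, members higher and lower were 10 and 6 in E545K and 10 and 11 in H1047R against wild type in DMSO. They were 2 and 4 with palbociclib in wild type and 11 and 7 in E545K, and 0 were lower in H1047R. With S-CM they were 20 and 5 in wild type, 12 higher in E545K, and 9 and 0 in H1047R. In responses minus that of wild type, 0 were lower for palbociclib in E545K, 11 higher and 0 lower in H1047R, 8 lower for S-CM in E545K, and 6 higher and 5 lower in H1047R. In H1047R against E545K 7 were higher in the second table, and erlotinib in H1047R had 2 lower.

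With quantile normalization, 2 members were lower in E545K against wild type, 2, 5 and 3 with palbociclib in wild type, E545K and H1047R, and 11 higher in the E545K palbociclib response minus that of wild type. In H1047R against E545K 9 were higher in the second table. With erlotinib 1 was higher and 7 lower in E545K and 2 lower in H1047R. With no filter, 4 were lower with erlotinib in H1047R and 0 with S-CM in H1047R.

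With the replicate block 2 were lower with erlotinib in H1047R and 0 with S-CM in H1047R, and PSME2 lost its call in the palbociclib response of E545K minus wild type (0.0517) and in H1047R against E545K of the second table (0.0549). It moved no other count by over 1.5 times. Same-numbered samples did not deviate together in all pairs (36 group pairs from -0.56 to 0.55 in the first table, 6 from -0.10 to 0.03 in the second), so the numbers were not taken to pair them.

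Leaving out 1 library, members higher ran from 23 to 29 and 25 to 28 in E545K and H1047R against wild type, with 0 to 1 lower in H1047R. With palbociclib they were 7 to 8 in wild type (0 lower in each), 14 to 18 in E545K (1 to 4 lower) and 12 to 30 in H1047R (0 to 2). With S-CM they were 31 to 35 in wild type, 14 to 18 in E545K (2 to 5 lower) and 5 to 9 in H1047R (0 lower in each). Palbociclib responses minus wild type had 3 to 6 higher and 0 to 3 lower in E545K and 2 to 21 and 0 to 3 in H1047R. For S-CM 23 to 31 were lower in E545K, and 0 to 1 higher and 18 to 25 lower in H1047R. H1047R against E545K gave 0 to 21 and 0 to 3 in the first table and 3 to 9 and 7 to 14 in the second. Erlotinib lowered 3 to 5 in E545K and 0 to 19 in H1047R, and its responses differed in 0 to 3 upward and 0 to 1 downward.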
